A study of Mus musculus with 24 samples.

Results

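The 10 genes described here encode the enzymes and the carrier that turn ammonia into urea, together with the ornithine and glutamine enzymes that feed or drain that cycle: Cps1, Otc, Ass1, Asl, Arg1, Nags, Slc25a15, Oat, Gls2 and Glul. They were picked by gene symbol from the table of 55469 genes, through the Ensembl identifier of each row, and each symbol matched a single row. All 10 passed the minimum mean of 10 normalised counts in the liver and 7 passed it in the brain. RNA sequencing covered 24 samples, with 3 livers and 3 brains from each of 4 genotypes: wild-type (WT) mice, and the homozygous knockouts tRNA-Phe-1-1-/-, then tRNA-Phe-2-1-/-, then tRNA-Phe-3-1-/-, the order in which values of the 3 lines are given. Each deleted gene makes a tRNA that carries phenylalanine to the ribosome, and every line was made with a single Cas9 guide and then bred to homozygosity. Per the study, all groups were C57BL/6N mice aged 10 weeks on normal chow. Its methods describe male mice with littermate-matched WT controls, and also the use of mice from different litters. Its reporting summary bases the results on both sexes. The deleted tRNA gene was the labelled difference between groups. A tissue piece of 3 mm by 3 mm was taken, not a whole organ, and the hour of collection is not given in the sources used here. In such bulk samples, fewer cells of a type and less RNA per cell cannot be told apart.

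The urea cycle runs in hepatocytes, partly inside the mitochondrion and partly in the cytosol, and protects the body from the ammonia that is set free when amino acids are broken down. Hepatocytes divide this work by their place in the liver lobule. Those around the portal vein (periportal) hold the urea cycle and glutaminase, while a thin layer around the central vein (pericentral) holds glutamine synthetase and Oat and traps the ammonia that escaped. In the brain, which has no complete urea cycle, glutamine synthetase of astrocytes takes on ammonia and recycles glutamate.

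Members moved unevenly in the livers. Oat was higher in the livers of all 3 knockout lines than in every WT liver and passed the test in tRNA-Phe-1-1-/- as well as tRNA-Phe-3-1-/- livers. Asl was higher in tRNA-Phe-1-1-/- than in either of the other lines, with no call between those, and Arg1 and Otc each passed the test in a single comparison between lines. Ass1, Gls2 and Glul, which work at opposite ends of the lobule, differed widely between livers of the same genotype in every group other than tRNA-Phe-2-1-/-, and neither they nor Cps1 passed in any comparison.

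The proximal promoters of the gene with the called rise (Oat) and of the members at opposite ends of the lobule (Ass1 periportal, Glul pericentral) are shown as the 250 bases before the start site, 5′ to 3′ along the strand of the gene, from RefSeq on GRCm38.p6. Of the 10 members, 6 matched the promoter table (Otc, Ass1, Nags, Slc25a15, Oat and Glul). Capitals mark a CCAAT box (CCAAT, or ATTGG when read on the other strand) or an E-box (CACGTG).
Oat (chr7:132576399-132576648, minus strand): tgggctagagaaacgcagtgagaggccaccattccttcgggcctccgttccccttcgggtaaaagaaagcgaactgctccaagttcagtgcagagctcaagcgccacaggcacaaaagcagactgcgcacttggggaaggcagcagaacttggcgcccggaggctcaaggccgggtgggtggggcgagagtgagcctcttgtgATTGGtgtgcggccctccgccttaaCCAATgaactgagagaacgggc
Ass1 (chr2:31470020-31470269, plus strand): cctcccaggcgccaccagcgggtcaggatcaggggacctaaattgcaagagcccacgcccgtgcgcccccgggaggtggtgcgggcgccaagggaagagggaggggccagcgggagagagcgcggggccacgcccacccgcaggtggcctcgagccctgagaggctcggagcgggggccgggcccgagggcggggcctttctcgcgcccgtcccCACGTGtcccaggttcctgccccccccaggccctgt
Glul (chr1:153899679-153899928, plus strand): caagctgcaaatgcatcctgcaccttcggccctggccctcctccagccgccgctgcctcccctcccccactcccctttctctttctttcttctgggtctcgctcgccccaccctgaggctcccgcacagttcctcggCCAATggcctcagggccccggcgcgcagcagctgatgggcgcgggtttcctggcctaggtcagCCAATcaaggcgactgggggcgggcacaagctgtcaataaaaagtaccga
Searched on both strands, the Oat window held a CCAAT box 22 and another 47 bases before the start, and the Glul window held CCAAT boxes at 113 and 50 bases. Of 32851 promoter windows of this length, 33.8% held a CCAAT box. The Ass1 window held an E-box 36 bases before the start, and so did 1 of the Slc25a15 windows (77 bases), against 6.02% of all windows. The other motifs searched were a TATA box (TATAAA, in 12.4% of windows), a CRE half-site (TGACG, 17.8%) and a TCF/LEF core (CTTTGA, 13.8%), and among the matched members they were found once, as a reverse TCF/LEF core 203 bases before the start of Nags. These matches describe letters in a window and are not measured binding.

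The libraries held 32276896 to 51584522 recovered reads in the liver and 30365760 to 46225360 in the brain. The 10 genes together took 0.942% to 1.43% of the reads of a liver and 0.112% to 0.164% of those of a brain. Hepatocyte markers summed to between 3398370 and 4897750 normalised counts in every liver. Values below are normalised counts (reads divided by the size factor of the library), a log2 fold change is a difference of log2(normalised count + 1) between groups of 3, and p-values come from limma, adjusted over all genes tested in a tissue by the Benjamini-Hochberg method with a threshold of 0.05. These p-values measure the spread between samples labelled A, B and C, which the study took from at least 3 mice.

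Levels between genes were compared per kilobase of the canonical transcript. In WT livers Ass1 (argininosuccinate synthase) led with 58372 ± 18651 normalised counts per kilobase (SD, n = 3), and Cps1 (carbamoyl phosphate synthetase) followed with 50547 ± 11048. Their ranges overlapped, so this pair was not ordered. Arg1 (arginase, which splits off urea) had 27091 ± 1849 per kilobase, below both without overlap. Glul, Otc, Gls2, Asl and Oat formed a run of overlapping neighbours from 10366 ± 5165 down to 5095 ± 886 per kilobase. Slc25a15 (the mitochondrial ornithine carrier, 3481 ± 195) and Nags (which makes the activator of Cps1, 1288 ± 101) stood apart at the bottom. In WT brains the order was led by Glul at 27556 ± 1150 per kilobase, followed by Oat at 1103 ± 86.4, and Cps1, Arg1, Nags and Otc were at 10.9 or fewer per kilobase.

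**Figure D1:**
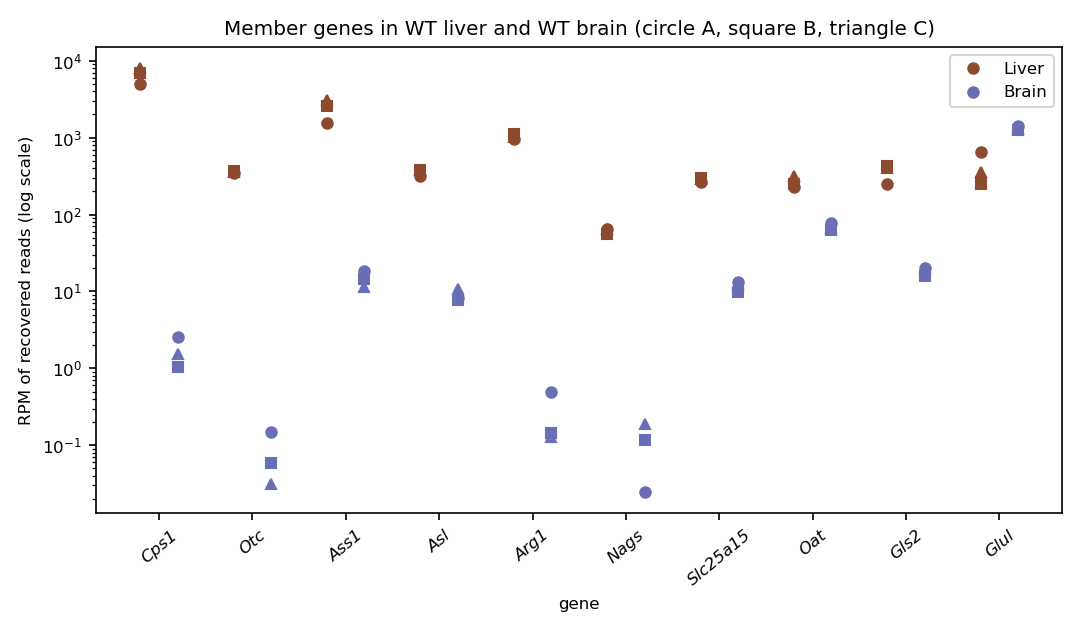
RPM (recovered reads of a gene scaled to a common library total, log scale) of each gene in the 3 WT livers (brown) and the 3 WT brains (blue), with a point for each sample. Glul is the member with the higher level in the brain (986 to 1520 RPM over all 12 brains), while Cps1, Otc, Arg1 and Nags are at 3.52 RPM or less in every brain.

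Oat encodes ornithine aminotransferase, the mitochondrial enzyme that converts ornithine to a precursor of proline and glutamate (chr7:132557475-132576398 on GRCm38.p6). The WT livers held 9620, 10686 and 13411 normalised counts. The tRNA-Phe-1-1-/- livers held 15137, 23389 and 17219, the tRNA-Phe-2-1-/- livers 14354, 16069 and 18854, and the tRNA-Phe-3-1-/- livers 18379, 29439 and 27963. Every knockout liver was above every WT liver, and tRNA-Phe-3-1-/- B and C held the highest values of the 12 livers. Against WT the log2 fold change was 0.71 ± 0.21 (SE; 95% interval 0.26 to 1.17, adjusted p = 0.036) in tRNA-Phe-1-1-/-. In tRNA-Phe-3-1-/- it was 1.15 ± 0.21 (0.70 to 1.61, adjusted p = 0.0353), a 2.22-fold higher level. For tRNA-Phe-2-1-/- it was 0.55 ± 0.21, which did not pass (adjusted p = 0.264). The difference between tRNA-Phe-3-1-/- and tRNA-Phe-2-1-/- did not pass either (adjusted p = 0.644). Both calls sat close to the threshold. The tRNA-Phe-1-1-/- call was lost without WT A, WT B, tRNA-Phe-1-1-/- B or tRNA-Phe-1-1-/- C (adjusted p 0.0558 to 0.107), and the tRNA-Phe-3-1-/- call was lost without any of the WT livers or without tRNA-Phe-3-1-/- B or C (adjusted p 0.0977 to 0.118), while the log2 fold change stayed between 0.54 and 0.85 in the former line and between 1.03 and 1.37 in the latter. In the brain Oat did not separate the genotypes, with 2159 to 2826 normalised counts in all 12 samples and log2 fold changes against WT of 0.01, -0.08 and 0.07 for the 3 lines in the same order.

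**Figure D2:**
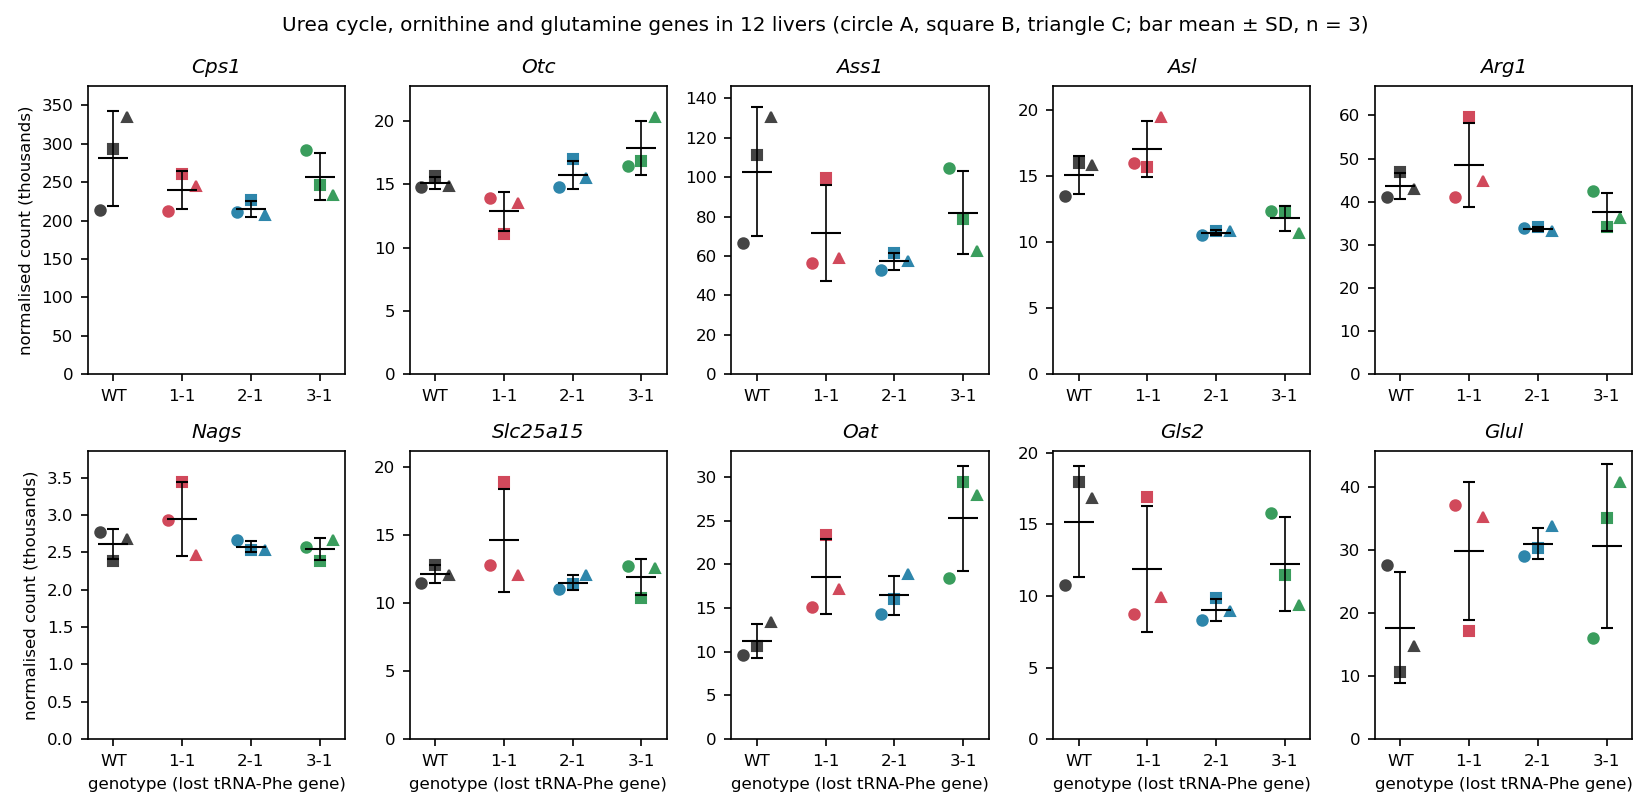
Normalised counts (scaled as the axis states) of the 10 genes in each of the 12 livers by genotype, with circles for replicate A, squares for B, triangles for C, and the mean ± SD of 3 livers as a bar. Oat lies above every WT value in all 9 knockout livers, Asl is lower than WT in every tRNA-Phe-2-1-/- or tRNA-Phe-3-1-/- liver, and Ass1, Gls2 and Glul spread widely within every group other than tRNA-Phe-2-1-/-.

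Asl encodes argininosuccinate lyase, which releases arginine and fumarate (chr5:130011258-130024381). WT livers held 13443, 15980 and 15831 normalised counts, and tRNA-Phe-1-1-/- livers 15996, 15682 and 19459. The counts in tRNA-Phe-2-1-/- livers were 10506, 10809 and 10806, and those in tRNA-Phe-3-1-/- livers 12340, 12333 and 10673. The tRNA-Phe-1-1-/- range overlapped that of WT, while every liver of the other lines was below every WT and every tRNA-Phe-1-1-/- liver. Asl had the lowest p of the 10 genes for any difference among the 4 genotypes (moderated F test, adjusted p = 0.00417). It was higher in tRNA-Phe-1-1-/- than in tRNA-Phe-2-1-/- by 0.66 ± 0.10 on the log2 scale (adjusted p = 0.00207) and than in tRNA-Phe-3-1-/- by 0.53 ± 0.10 (adjusted p = 0.00677). Both calls held with any 1 of the 6 libraries of the groups compared left out. The call against tRNA-Phe-3-1-/- was lost in 1 of 11 alternative settings (adjusted p = 0.0531). Against WT the log2 fold changes were 0.17 ± 0.10 (interval -0.05 to 0.40), -0.49 ± 0.10 (-0.72 to -0.26) and -0.36 ± 0.10 (-0.58 to -0.13) in the 3 lines. None of these passed after adjustment over all genes (adjusted p = 0.282, 0.0857 and 0.13). DESeq2 on the recovered reads called the latter pair (adjusted p = 0.00153 and 0.0347). Among 11353 protein-coding genes (mean normalised count 50 or more), the 5 whose level followed Asl most closely over the 12 livers were Rreb1 (Pearson r = 0.92), Zc3h3 (0.92), Cdc73 (0.91), Trim65 (0.91) and Akt2 (0.90).

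Arg1 (chr10:24915207-24927470) followed the order of Asl. Its counts were 41077, 46910 and 42945 in WT livers, 41126, 59676 and 44729 in tRNA-Phe-1-1-/-, 33925, 34077 and 33156 in tRNA-Phe-2-1-/-, and 42535, 34064 and 36134 in tRNA-Phe-3-1-/-. All tRNA-Phe-2-1-/- livers were below all WT and all tRNA-Phe-1-1-/- livers, and tRNA-Phe-3-1-/- overlapped WT. Arg1 was higher in tRNA-Phe-1-1-/- than in tRNA-Phe-2-1-/- by 0.51 ± 0.14 on the log2 scale (adjusted p = 0.0279), a call that was lost without tRNA-Phe-1-1-/- B or without any 1 of the tRNA-Phe-2-1-/- livers (adjusted p 0.0678 to 0.0832). Against WT the log2 fold changes of 0.14, -0.37 and -0.22 did not pass (adjusted p = 0.536, 0.255 and 0.465).

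Otc, the X-linked gene of ornithine transcarbamylase (chrX:10252230-10321024), ran the other way. The WT livers held 14826, 15658 and 14859 normalised counts and the tRNA-Phe-1-1-/- livers 13957, 11067 and 13556. Those of tRNA-Phe-2-1-/- held 14811, 16986 and 15504, and those of tRNA-Phe-3-1-/- 16425, 16822 and 20327. Thus all tRNA-Phe-1-1-/- livers were below and all tRNA-Phe-3-1-/- livers above the WT range, with tRNA-Phe-2-1-/- overlapping it. The gap from tRNA-Phe-3-1-/- to tRNA-Phe-1-1-/- was -0.47 ± 0.11 on the log2 scale and passed (adjusted p = 0.0147), though not without tRNA-Phe-3-1-/- C (adjusted p = 0.0513). Neither line passed against WT (-0.24 ± 0.11, adjusted p = 0.158, and 0.23 ± 0.11, adjusted p = 0.325).

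Nags (chr11:102145513-102149528) and Slc25a15 (chr8:22375550-22398621) passed in no comparison. Nags lay between 2379 and 3446 normalised counts in the 12 livers, and Slc25a15 between 10407 and 18939. For both, the highest liver was tRNA-Phe-1-1-/- B and the groups overlapped in every comparison with WT. The 95% intervals of their log2 fold changes against WT reached from -0.28 to 0.41 for Nags and from -0.40 to 0.57 for Slc25a15 over the 3 lines, and changes within those bounds could not be told from 0 with 3 livers per group.

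Read against the whole table, the members were not called more often than other genes in tRNA-Phe-1-1-/- livers. There 1 of 10 members passed against WT, where 17.3% of the 15856 genes tested passed. In tRNA-Phe-2-1-/- 0 of 10 passed in limma (0 with edgeR and 1 with DESeq2), against 0.132% of all genes in limma. At an unadjusted p under 0.05 there were 6 of 10 members and 14.9% of all genes. Shares of all genes in this paragraph are those of limma, and the shares with edgeR or DESeq2 are not given here. In tRNA-Phe-3-1-/- 1 of 10 passed, against 0.883%. Between lines, 2 of 10 passed where tRNA-Phe-1-1-/- was compared with tRNA-Phe-2-1-/- (15.9% of all genes) and 2 of 10 where it was compared with tRNA-Phe-3-1-/- (16.1%). Where tRNA-Phe-2-1-/- was compared with tRNA-Phe-3-1-/-, 0 of 10 passed in limma (1 at an unadjusted p under 0.05, Oat, and 0 with edgeR or DESeq2), beside 0% of all genes (6.68% at an unadjusted p under 0.05). The F test over the 4 genotypes called 2 of 10 members, Asl and Oat, against 17% of all genes. Groups did not overlap with WT for 2 of 10 members in tRNA-Phe-1-1-/- (34.8% of all genes), for 6 of 10 in tRNA-Phe-2-1-/- (25.4%) and for 3 of 10 in tRNA-Phe-3-1-/- (19.9%). The median absolute log2 fold change of the members was 0.24, 0.43 and 0.27 in the same order of lines, beside 0.27, 0.19 and 0.19 over all genes. The 6 members without overlap in tRNA-Phe-2-1-/- include Ass1, Gls2 and Glul, which followed the same split between livers, described below. They are not separate observations. The members were also chosen with earlier results of these data known, so these counts are not a test against other genes.

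**Figure D3:**
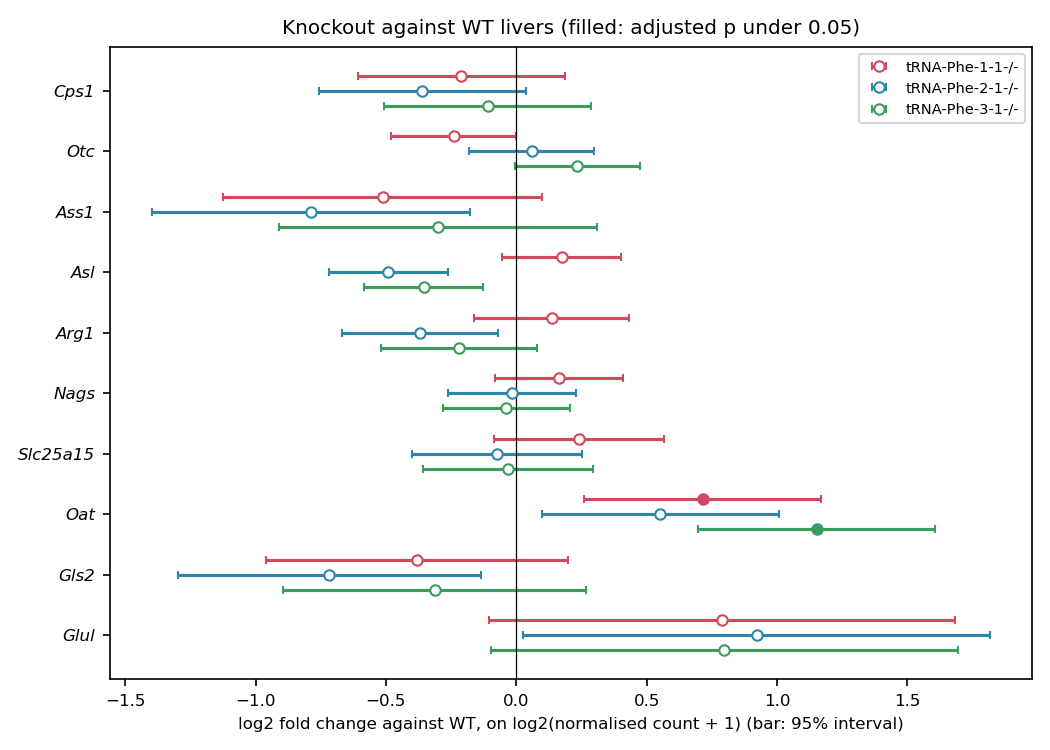
Log2 fold change of each gene in the liver of each knockout line against WT (points, with 95% intervals as bars; filled points passed at an adjusted p under 0.05). Only the Oat points at 0.71 (tRNA-Phe-1-1-/-) and 1.15 (tRNA-Phe-3-1-/-) are filled, and the widest intervals belong to Glul, Ass1 and Gls2.

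Ass1 (chr2:31470270-31520670), Gls2 (the liver glutaminase, which frees ammonia from glutamine, chr10:128194635-128210004) and Cps1 (chr1:67122426-67231267) rose and fell together from liver to liver, and Glul (glutamine synthetase, chr1:153899929-153909723) did the reverse. Glul had 27533, 10632 and 14827 normalised counts in WT livers, 37028, 17199 and 35171 in tRNA-Phe-1-1-/-, 28953, 30251 and 33714 in tRNA-Phe-2-1-/- and 15944, 35062 and 40786 in tRNA-Phe-3-1-/-. The counts left a wide gap between 17199 and 27533, with 4 livers below it (WT B, WT C, tRNA-Phe-1-1-/- B and tRNA-Phe-3-1-/- A) and 8 above it. The lower set thus held 2 of the 3 WT livers and none of tRNA-Phe-2-1-/-.

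Ass1 was at 66559, 111207 and 130612 in WT livers, 56634, 99676 and 58942 in tRNA-Phe-1-1-/-, 53156, 61634 and 57293 in tRNA-Phe-2-1-/- and 104529, 78696 and 62729 in tRNA-Phe-3-1-/-. Its 4 highest livers, from 99676 to 130612, were the 4 livers low in Glul, and the other 8 lay between 53156 and 78696. Gls2 had 10751, 17982 and 16837 in WT, 8755, 16926 and 9947 in tRNA-Phe-1-1-/-, 8335, 9855 and 8919 in tRNA-Phe-2-1-/- and 15814, 11487 and 9338 in tRNA-Phe-3-1-/-. The same 4 livers held 15814 to 17982 of it and the other 8 held 8335 to 11487. Cps1 had 214110, 293331 and 334920 in WT, 212323, 261072 and 244395 in tRNA-Phe-1-1-/-, 211590, 226486 and 207140 in tRNA-Phe-2-1-/- and 291228, 246765 and 232708 in tRNA-Phe-3-1-/-. Again the 4 livers low in Glul were the highest, at 261072 to 334920 against 207140 to 246765.

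**Figure D4:**
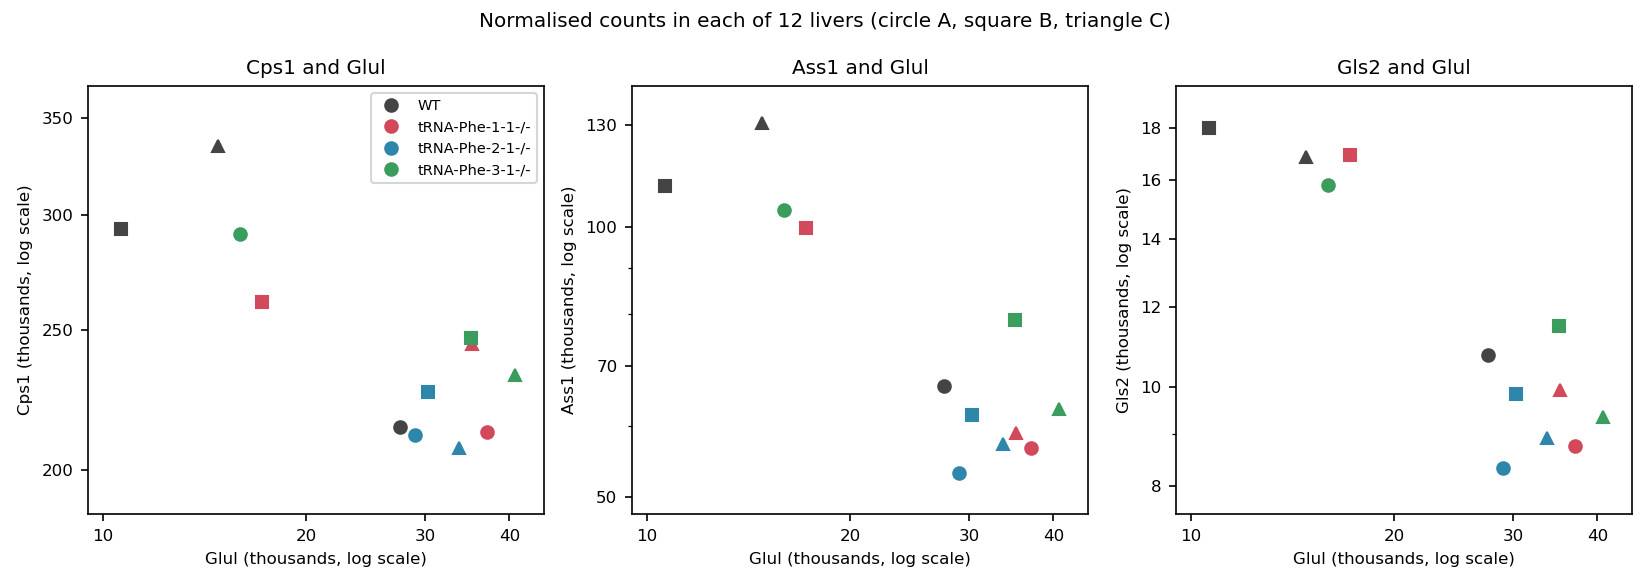
Cps1, Ass1 and Gls2 against Glul in each of the 12 livers (normalised counts, scaled as the axes state, both axes on a log scale, colour for genotype and shape for replicate). The 4 livers with 10632 to 17199 counts of Glul carry the highest values of all 3 other genes, and they come from 3 genotypes.

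Because the livers fell into these sets, correlations were taken among the 8 livers with the higher Glul alone and serve as a description. There Ass1 and Gls2 still moved together (Pearson r = 0.93, Spearman rho = 0.90, and r = 0.83 without the 2 livers farthest from the median of Ass1). Ass1 and Cps1 were less close (r = 0.62, rho = 0.71). The opposition to Glul was not seen among these 8 (r = 0.09 for Ass1, -0.09 for Gls2 and 0.41 for Cps1), although without the 2 livers farthest from the median of Ass1 or Gls2 the values were -0.50 for Ass1 and -0.71 for Gls2 (0.39 for Cps1 by the same step), so with so few livers it cannot be settled among the 8.

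Tested across genotypes, none of these 4 genes passed in any comparison in the liver. Against WT in tRNA-Phe-2-1-/-, the log2 fold changes were -0.79 ± 0.28 for Ass1 (interval -1.40 to -0.18, adjusted p = 0.238), -0.72 ± 0.27 for Gls2 (-1.30 to -0.14, adjusted p = 0.258), -0.36 ± 0.18 for Cps1 (adjusted p = 0.373) and 0.92 ± 0.41 for Glul (0.03 to 1.82, adjusted p = 0.324). All tRNA-Phe-2-1-/- livers were below WT for Ass1 and Gls2 and above WT for Glul. Glul differed by 0.79 ± 0.41 in tRNA-Phe-1-1-/- and 0.80 ± 0.41 in tRNA-Phe-3-1-/- livers (adjusted p = 0.213 and 0.372), with overlapping ranges.

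Other genes of the lobule zones gave the same split. The score of a list was the mean log2 deviation of its genes from their own average over the 12 livers, with none of the 10 members in either list. The pericentral score (20 genes) lay from -0.54 to -0.20 in the 4 livers low in Glul and from 0.09 to 0.56 in the other 8. The periportal score (15 genes) lay from 0.15 to 0.45 in the 4 and from -0.48 to 0.07 in the 8. Neither score overlapped between the sets. Arg1, a further periportal enzyme, overlapped between them (42535 to 59676 against 33156 to 44729), and so did Otc, Asl, Nags, Slc25a15 and Oat. Within the 8 livers high in Glul, Glul rose with the periportal score (Pearson r = 0.86, Spearman rho = 0.93). It also rose with the pericentral score (r = 0.72, rho = 0.50). Gls2 followed neither score there (r = 0.18 and -0.04). The opposed pattern of the zones was thus seen between the sets. Among the 8, whose range of Glul was narrowed by the cut, it was not seen, and with so few livers it cannot be settled there. What set this split was not tested.

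**Figure D5:**
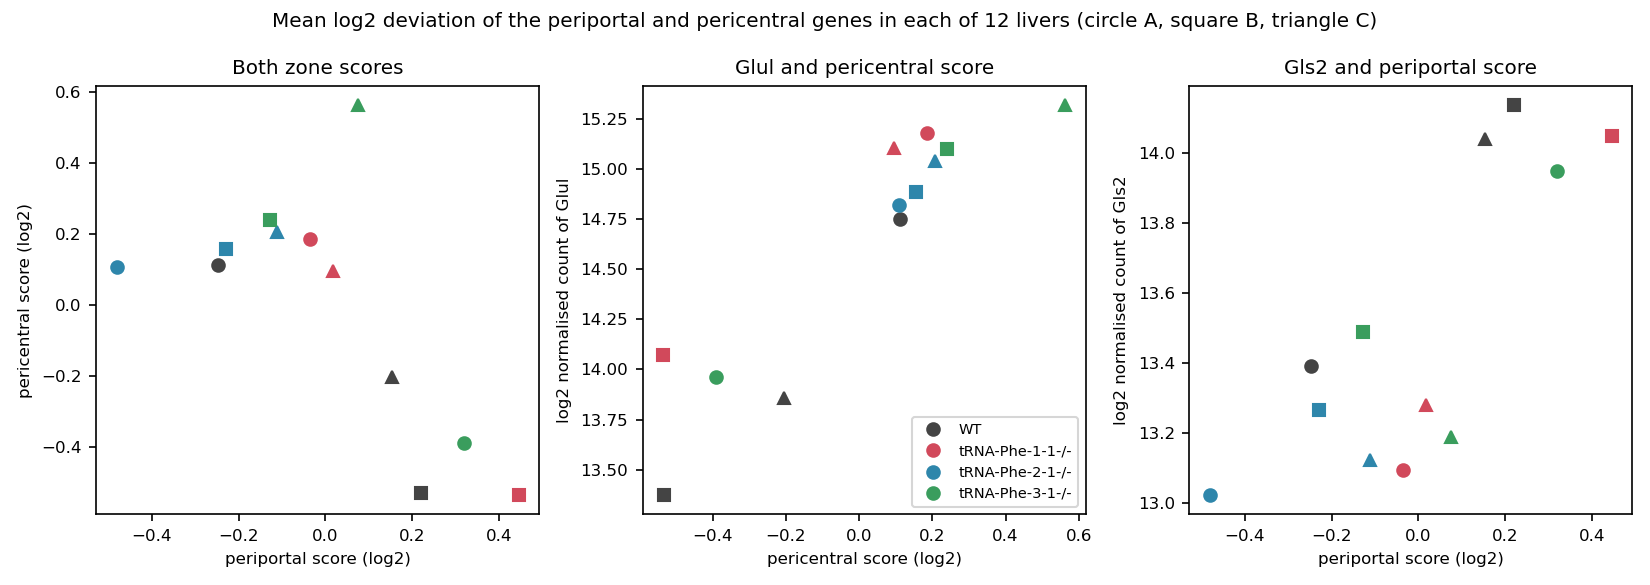
Left, periportal against pericentral score (mean log2 deviation) in each of the 12 livers. Middle and right, log2 normalised count of Glul against the pericentral score and of Gls2 against the periportal score. The 4 livers with pericentral scores of -0.54 to -0.20 sit apart from the 8 with 0.09 to 0.56.

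By genotype, calls in the zone lists came mainly in tRNA-Phe-1-1-/- livers, where 17.3% of all genes were called. Of 15 periportal genes tested, 3 rose and 3 fell there against WT, with a median log2 fold change of -0.02 beside -0.01 over all genes. Pck1 (the entry enzyme of gluconeogenesis) rose from 26744 ± 2751 to 101543 ± 6801 normalised counts (SD, n = 3), a log2 fold change of 1.93 ± 0.25 (adjusted p = 0.000582). Rnase4 (1.42 ± 0.14, adjusted p = 0.000136) and Ang (1.71 ± 0.19, adjusted p = 0.000278) also rose, a pair of neighbouring genes with shared promoters whose reads may not be fully separable. Uroc1, of histidine breakdown, fell by 0.71 on the log2 scale (adjusted p = 0.00466). Of 20 pericentral genes 1 rose, the glutamate transporter Slc1a2 (1.54 ± 0.25, adjusted p = 0.00198), and 1 fell, Cyp2c29 (-0.96 ± 0.16, adjusted p = 0.00268), with a median of 0.17. In tRNA-Phe-2-1-/- none of either list passed in limma. The median log2 fold change there was -0.30 for the periportal list, with 4 of 15 genes above 0, and 0.30 for the pericentral list, with 17 of 20 above 0, beside a median near 0 over all genes. In tRNA-Phe-3-1-/- 1 periportal gene rose (median 0.04, with 9 of 15 above 0) and 0 pericentral genes passed (median 0.26, with 17 of 20 above 0).

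The lists of ammonia and amino acid genes around the members are read against the share of all genes called, which was 17.3% in tRNA-Phe-1-1-/-, 0.132% in tRNA-Phe-2-1-/- and 0.883% in tRNA-Phe-3-1-/- livers against WT. Of 21 listed genes of amino acid breakdown, not all of which free nitrogen themselves, 8 fell and 0 rose in tRNA-Phe-1-1-/-, with a median log2 fold change of -0.26. Amt and Ftcd, of glycine and histidine breakdown, fell by 0.82 and 0.77 (adjusted p = 0.000669 and 0.00192), and Amdhd1 and Uroc1, also of histidine breakdown, fell by 1.08 and 0.71 (adjusted p = 0.00206 and 0.00466). In tRNA-Phe-2-1-/- 0 of the 21 passed and in tRNA-Phe-3-1-/- 1 rose and 0 fell.

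Of 24 genes of glutamine and glutamate handling, 8 rose and 3 fell in tRNA-Phe-1-1-/- (median 0.35). Ppat, which uses glutamine to start purine synthesis, rose from 793 ± 75.1 to 1510 ± 57.3 normalised counts (log2 fold change 0.93 ± 0.14, adjusted p = 0.00161). Slc1a2 rose from 3164 ± 757 to 9068 ± 1236. Aqp8, a membrane channel that can pass ammonia, fell from 7364 ± 2587 to 566 ± 423 (log2 fold change -3.93 ± 0.50, adjusted p = 0.000582). Aspg, an asparaginase, fell by 0.66 (adjusted p = 0.00539). None of the 24 passed in tRNA-Phe-2-1-/- and 1 fell in tRNA-Phe-3-1-/-.

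The list of ornithine, polyamine and proline genes, only some of which share the substrate or product of Oat, gave 3 rises and 3 falls among 17 in tRNA-Phe-1-1-/- (median 0.06). Amd1, of polyamine synthesis, rose from 1273 ± 166 to 2829 ± 154 (1.16 ± 0.21, adjusted p = 0.00411), and Pycr3, which makes proline from the route that Oat feeds, rose from 647 ± 95.4 to 944 ± 39.2 (0.56 ± 0.12, adjusted p = 0.00851). Aldh4a1, which oxidises the same intermediate to glutamate, fell from 16907 ± 2438 to 10521 ± 620 (-0.68 ± 0.11, adjusted p = 0.0017), and Paox, of polyamine breakdown, fell by 0.66 (adjusted p = 0.0131). None passed in the other lines. Among 11 genes listed around the urea cycle, the fumarase gene Fh1 (0.95 ± 0.17, adjusted p = 0.00315) and the basic amino acid carrier Slc25a29 (1.41 ± 0.33, adjusted p = 0.0146) rose in tRNA-Phe-1-1-/-. Mpc2, of the mitochondrial pyruvate carrier and not of the cycle itself, fell there by 0.25 and Mdh1 by 0.29 (adjusted p = 0.0351 and 0.0426). The list had 0 calls in the other lines.

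Of 16 genes listed as regulators, mainly transcription factors and receptors, 5 rose and 1 fell in tRNA-Phe-1-1-/- livers (median 0.21), where 17.3% of all genes were called. Cebpd rose from 93.6 ± 25.6 to 527 ± 117 normalised counts (2.49 ± 0.23, adjusted p = 0.000114) and Cebpb from 636 ± 142 to 2672 ± 5.46 (2.09 ± 0.22, adjusted p = 0.000195), both of the C/EBP family of liver and acute-phase factors. Klf15, a regulator of amino acid breakdown, rose by 0.71 ± 0.17 (adjusted p = 0.0176), and the circadian repressor Nr1d2 by 1.70 ± 0.32 (adjusted p = 0.00472), beside 0.11 ± 0.54 (adjusted p = 0.918) for Nr1d1. In tRNA-Phe-2-1-/- 0 passed and in tRNA-Phe-3-1-/- 1 fell. Neutrophil markers moved with this genotype: their summed level was 179 to 427 in tRNA-Phe-1-1-/- livers and 51.8 to 93.9 in WT, with 3 of 6 listed markers abundant enough to test and all 3 higher, and lymphocyte markers summed to 27.6 to 74.1 against 73.3 to 162, with 2 of 4 lower. Among the other marker lists 0 of 6 Kupffer and 0 of 5 cholangiocyte markers passed in tRNA-Phe-1-1-/- livers, 2 of 6 endothelial markers rose and 1 fell, 1 of 6 stellate markers rose, and 1 of 8 hepatocyte markers rose and 1 fell. No marker of these lists passed in limma in the livers of the other lines. The part of these cells in the values of Oat, Asl or the lists in tRNA-Phe-1-1-/- was not tested.

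In the brain, Glul dominated the group. WT brains held 49171, 46246 and 45451 normalised counts, tRNA-Phe-1-1-/- brains 52870, 51885 and 52003, tRNA-Phe-2-1-/- brains 44534, 40685 and 40632 and tRNA-Phe-3-1-/- brains 34378, 44368 and 38167. All tRNA-Phe-1-1-/- brains were above and all brains of the other lines below the WT range. The share of all genes with such a separation in the brain was not counted, here or for Gls2 below. Glul was the single member to pass in any brain comparison, being higher in tRNA-Phe-1-1-/- than in tRNA-Phe-3-1-/- by 0.43 ± 0.09 on the log2 scale (adjusted p = 0.0436). This call was lost without any of the 6 brains compared other than tRNA-Phe-3-1-/- B (adjusted p 0.099 to 0.147), and under quantile normalisation the difference was 0.31 (adjusted p = 0.0873). Against WT, Glul gave 0.15 ± 0.09, -0.16 ± 0.09 and -0.28 ± 0.09 in the 3 lines (adjusted p = 0.45, 0.919 and 0.281). Astrocyte markers, of the cells that make Glul in the brain, summed to 62128 to 65073 in tRNA-Phe-1-1-/- and 52876 to 68990 in tRNA-Phe-3-1-/-, with overlap. Oligodendrocyte markers summed to 44025 to 83672 in tRNA-Phe-1-1-/- brains, below all WT brains (115758 to 138122), and to 64010 to 153170 in tRNA-Phe-2-1-/- and 79489 to 169610 in tRNA-Phe-3-1-/-. All 6 of them had a log2 fold change between -1.36 and -0.89 in tRNA-Phe-1-1-/- against WT, with an unadjusted p of 0.0025 to 0.0441 and an adjusted p of 0.0961 to 0.295. In tRNA-Phe-1-1-/- brains 0 astrocyte, neuron, oligodendrocyte or microglia markers passed against WT in limma, while of 6 endothelial markers Ly6c1 rose (0.89) and Cldn5 fell by 0.54 (adjusted p = 0.016 for both); no marker passed in the other lines. The part of tissue composition in the Glul values was not tested.

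Gls2 was lower in tRNA-Phe-3-1-/- brains (444, 472 and 412 normalised counts) than in WT brains (695, 575 and 723) without overlap, with a log2 fold change of -0.58 ± 0.11 (interval -0.82 to -0.34) that did not pass in limma (adjusted p = 0.149) and passed with DESeq2 (adjusted p = 0.000967). Ass1, Asl and Slc25a15 lay between 409 and 1255, between 231 and 463 and between 359 and 469, with groups that overlapped WT in every line. In all, 0 of 7 members passed against WT in limma in each line, beside 1.05%, 0% and 0% of the 19228 genes tested. At an unadjusted p under 0.05 there were 1, 0 and 2 members (15.9%, 5.57% and 12.3% of all genes), edgeR called 0, 0 and 0 members and DESeq2 0, 0 and 1. Between lines, 0 of 7 passed where tRNA-Phe-1-1-/- was compared with tRNA-Phe-2-1-/- (0.53% of all genes), 1 of 7 where it was compared with tRNA-Phe-3-1-/- (2.11%), and 0 of 7 where tRNA-Phe-2-1-/- was compared with tRNA-Phe-3-1-/- (0%). The counts of 0 in limma stood beside 1 and 3 members at an unadjusted p under 0.05 (13.7% and 9.93% of all genes), 0 and 0 with edgeR, and 1 and 0 with DESeq2. The F test in limma called 0 of 7, against 0.634% of all genes in limma, and at an unadjusted p under 0.05 there were 2 of 7 members and 17.6% of all genes. Over the 4 genotypes edgeR called 0 members and DESeq2 2. Shares of all genes in this paragraph are those of limma, and the shares with edgeR or DESeq2 are not given here.

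The liver-restricted members Cps1, Otc and Arg1 had few reads in the brain and moved with albumin. Cps1 had 89.0, 38.0 and 55.3 normalised counts in WT brains, 123, 5.20 and 15.0 in tRNA-Phe-1-1-/-, 43.1, 86.0 and 112 in tRNA-Phe-2-1-/- and 12.9, 14.8 and 17.8 in tRNA-Phe-3-1-/-. Alb, the albumin gene of hepatocytes, had 625, 227 and 140 in WT, 851, 5.20 and 36.1 in tRNA-Phe-1-1-/-, 310, 599 and 877 in tRNA-Phe-2-1-/- and 3.23, 9.60 and 36.5 in tRNA-Phe-3-1-/-. The brains rich in Alb were the brains rich in Cps1, with Pearson r = 0.95 and Spearman rho = 0.97 over 12 samples on the log2 scale (r = 0.95 without the 2 brains farthest from the median of Alb). Otc, at 0 to 25.2 normalised counts, and Arg1, at 0 to 20.6, gave r = 0.79 and 0.77 with Alb, beside 0.52 for Gls2, 0.35 for Nags (0 to 6.77 normalised counts) and 0.22 for Glul. The tRNA-Phe-3-1-/- brains, below WT in Gls2, were also below WT in Alb, and the part of that in the Gls2 values was not tested. Cps1 in the brain, which spanned 5.20 to 123 normalised counts, is therefore given without a reading by genotype, and the source of these reads was not tested.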

How the data were processed

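RNA from liver and brain pieces was sequenced by the authors. Per the study's methods they trimmed reads with Trim Galore 0.6.4_dev, aligned them with STAR 2.7.8a to GRCm38.p6 with GENCODE vM24, quantified transcripts with Salmon (strand-aware, corrected for sequence and GC bias), summed them with tximport and analysed each tissue with DESeq2. The deposited tables are a signal: read counts divided by 1 size factor per sample, which assumes that most genes did not change. Deposited tables of the authors' own comparisons (fold changes, their errors and s-values) were not used. Every value was a whole multiple of its column's smallest value (100% of values within 0.01 read, in all 24 samples), so reads were recovered to give the depth and to run edgeR 4.0.16 and DESeq2 1.42.0 as alternatives.

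Symbols were matched for 93.2% of identifiers, and 1 gene of the pathway lists had no match. Normalised counts were tested as log2(value + 1), which understates changes of low genes, with limma 3.58.1 (R 4.3.3, variance trend, two-sided) on the 12 samples of a tissue, for genes with a mean of at least 10. Any difference was tested with the moderated F test. P-values were adjusted by Benjamini-Hochberg within each comparison. With 3 against 3, an exact permutation test could not go below 0.1, so it was not used. The 3 comparisons with WT share the WT samples. The fit was tested on simulated data.

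The 10 members, the pathway, zone and marker lists and the comparisons were chosen with earlier results of these data known. All members are named, and from each pathway or zone list up to 4 genes with the lowest adjusted p past the threshold in the liver comparison with most calls. The correlations among the 8 livers were added after the values were seen. Alternatives were pseudocounts of 0.1 and 5, no filter, a mean of at least 50, quantile and trimmed-mean (30% from each end) normalisation, no variance trend, only the 2 groups compared, a replicate block, edgeR, DESeq2 and leaving out each library. No replicate pair agreed within counting noise, so all were kept. Gene coordinates and promoters are from RefSeq on GRCm38.p6.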

Additional observations from a re-analysis of the deposited data

Results flagged for a closer look

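Results are listed here where all samples of a group lay on one side of the other group in the liver and on the opposite side in the brain. The tissues were normalised separately and the difference between them was not tested. Of the 10 members, 7 were tested in both tissues, in 6 comparisons each. The share of all genes that meet this rule was not counted, so the listed results cannot be called more frequent than for other genes. In the liver alone, groups did not overlap with WT for 34.8%, 25.4% and 19.9% of all genes in the 3 lines.

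Asl was higher in tRNA-Phe-1-1-/- than in tRNA-Phe-3-1-/- livers (log2 fold change 0.53, adjusted p = 0.00677 in limma). It was lower in tRNA-Phe-1-1-/- than in tRNA-Phe-3-1-/- brains (-0.39), where it did not pass (adjusted p = 0.273 in limma). Glul was higher in tRNA-Phe-2-1-/- than in WT livers (0.92) and lower in tRNA-Phe-2-1-/- than in WT brains (-0.16), neither of which passed in limma. Cps1 was lower in tRNA-Phe-2-1-/- than in tRNA-Phe-3-1-/- livers (-0.25) and higher in the brains (2.24). Neither passed in limma (adjusted p = 0.85 and 0.428), and in the brain Cps1 has few reads and moves with Alb.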

How the results depend on the processing

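Of 41 log2 fold changes of members followed through the alternatives, 435 of 451 values kept their direction and side of the threshold, 12 lost and 4 gained significance and 0 reversed. With a library left out, 219 of 246 did so, 19 lost significance and 8 reversed, all small and not called: Arg1 in tRNA-Phe-1-1-/- against WT livers (-0.023 to 0.25 over the left-out libraries), Nags in tRNA-Phe-2-1-/- (-0.081 to 0.029, with 0.0038 without WT C), and, in tRNA-Phe-3-1-/-, Cps1 (-0.29 to 0.029), Nags (-0.10 to 0.0087, with 0.0069 without WT A) and Slc25a15 (-0.083 to 0.0635, with 0.0098 without WT B). Most of the 41 changes were not called and could not lose significance. All 19 losses fell on calls. Oat lost its call against WT livers in tRNA-Phe-1-1-/- (4 of 6 libraries) and tRNA-Phe-3-1-/- (5 of 6). Arg1 lost it in 4 of 6 for tRNA-Phe-1-1-/- compared with tRNA-Phe-2-1-/- livers. For tRNA-Phe-1-1-/- compared with tRNA-Phe-3-1-/-, Otc lost it in the liver (1 of 6) and Glul in the brain (5 of 6).

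Counts of members called moved as follows, and the cause was not tested. The share of all genes called in each setting, or with a library left out, is not given here. These counts therefore describe the members alone and cannot be read against other genes. Without the variance trend 0 passed in the liver for tRNA-Phe-1-1-/- and 0 for tRNA-Phe-3-1-/- (both against WT), and 0 in the brain for tRNA-Phe-1-1-/- compared with tRNA-Phe-3-1-/-. With only the 2 groups compared, which leaves fewer samples, the liver counts against WT were 0, 1 and 0 for the 3 lines, tRNA-Phe-1-1-/- had 1 when compared with tRNA-Phe-2-1-/- and 0 when compared with tRNA-Phe-3-1-/-, and the latter was 0 in the brain too. DESeq2 called 1 member in tRNA-Phe-2-1-/- and 2 in tRNA-Phe-3-1-/- livers against WT and 4 in the liver F test. In the brain it called 1 in tRNA-Phe-3-1-/- against WT, 1 for tRNA-Phe-1-1-/- compared with tRNA-Phe-2-1-/-, and 2 over the 4 genotypes. With no filter, or with quantile normalisation, 0 passed in the brain for tRNA-Phe-1-1-/- compared with tRNA-Phe-3-1-/-.

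Leaving out a library gave 0 to 1 members in the liver for tRNA-Phe-1-1-/- and for tRNA-Phe-3-1-/- against WT. For tRNA-Phe-1-1-/- it gave 1 to 2 compared with tRNA-Phe-2-1-/- and 1 to 3 compared with tRNA-Phe-3-1-/- in the liver, and 0 to 1 for both in the brain, as for the brain F test.

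Samples that shared a letter did not deviate together (median correlation -0.03 in the liver and 0.03 in the brain), so the letter was not taken as a pairing. With the letter as a replicate block, 0 members passed for tRNA-Phe-1-1-/- compared with tRNA-Phe-3-1-/- brains (Glul 0.43, adjusted p = 0.0604), and the other counts of members called kept their value.

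Depth was not the limit for members in the liver, where each had at least 2065 reads. In the brain, with libraries of similar depth, Otc, Arg1 and Nags had at most 27 reads. They fell under the minimum mean and were not tested in the main fit.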
